A study of Mus musculus with 12 samples.

Results

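RNA-Seq of hernia-associated fibroblasts (HAFs) was examined for 33 genes of sterol and fatty acid synthesis, taken by name from the 13233 genes listed in the table, and all 33 were measured. They comprised 18 enzymes of cholesterol synthesis, 6 genes that regulate that synthesis or carry sterols inside the cell, and 9 enzymes of fatty acid synthesis, elongation and desaturation. HAFs are primary fibroblasts grown from the lower abdominal muscle (LAM) of Aromhum mice, an FVB/N line that carries the human aromatase gene, whose product makes 17β-estradiol (E2) from testosterone. Every group therefore shares the transgene and the passage 1 culture in serum-free, phenol red-free medium with a little charcoal-stripped serum. Cells were treated for 48 h in 4 groups of 3 samples, which received vehicle, E2 (10 nM), fulvestrant (100 nM) or both agents at these doses, the antagonist being given first. Fulvestrant is an estrogen receptor (ESR) antagonist that also leads to loss of the receptor. The labels number the samples of each group 1 to 3 and do not say whether they came from separate cultures or animals, so p-values measure only the spread between these samples. In cells in bulk, fewer cells of a kind and less RNA per cell cannot be told apart.

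The values were normalized counts, which are reads per gene divided by 1 factor per sample. Each sample had between 18827792 and 44040507 reads on the listed genes, and the shallowest member, Idi1, still had at least 39 reads in each sample. Over all genes, deviations from the group mean correlated at 0.84 to 0.92 between samples of number 1. Within number 2 they did so at 0.66 to 0.80, within number 3 at 0.63 to 0.78, and between these numbers at 0.63 to 0.79. Between number 1 and the others the correlation was -0.86 to -0.71. Deviations from a mean cancel within each group, which by itself pushes correlations between numbers down. Replicate 1 stood apart, with all 4 of its values outside the range of the other 8 for 45% of all genes and for 7 of the 33 members (21.2%). Comparisons were therefore made within replicate numbers, by limma on log2(normalized count + 1) with the number as a block, and the main values without replicate 1 that change a call or a count are given beside them. Calls required both a fold change over 1.2 and a p under 0.05 after Benjamini-Hochberg adjustment over all genes. The treatments were checked on Pgr, the progesterone receptor gene and an E2 target, which was 3.28 higher on the log2 scale with E2 than with E2 plus fulvestrant (SE 0.27, adjusted p = 4.69e-05), and on Esr1, the receptor gene itself, which was 2.26 higher in the same comparison. All 10 fibroblast markers were listed, and their sum was 487380 to 623159 normalized counts in the 6 samples without fulvestrant and 391540 to 459609 in the 6 with it. In E2 against E2 plus fulvestrant, 5 of the 10 were called (Esr1, Lum, Col1a1, Col1a2 and Col3a1), each lower with fulvestrant. The part of this shift in the results on the members was not tested. Of the markers of other cells, 4 of 11 adipocyte, 1 of 10 myogenic (Tnnt3), 1 of 7 endothelial, 2 of 7 immune (Cd68 and Lyz2) and 4 of 8 mural and glial markers were listed. Adipoq, Plin1, Fabp4 and Cidec were among the adipocyte markers not listed. Since each listed gene had at least 10 reads in every sample, an unlisted gene may still have been present in some samples.

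Cholesterol is built from acetyl-CoA through mevalonate, isoprenoid units, squalene and lanosterol, and fatty acids are built from the same acetyl-CoA, which ACLY makes from citrate. Both routes are under SREBP transcription factors. SCAP carries SREBP precursors from the endoplasmic reticulum to the Golgi for cleavage when sterols are low, and INSIG proteins hold SCAP back when sterols are high. SREBP-2, encoded by Srebf2, chiefly drives sterol genes, and SREBP-1c, encoded by Srebf1, chiefly drives fatty acid genes and is also induced by the oxysterol receptor LXR.

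By group median, genes of fatty acid synthesis were the most abundant members per kilobase of exon, but the groups overlapped. Exon length was that of all annotated transcripts of a gene merged, which can exceed the RNA made in these cells. Levels per kilobase may thus be understated, more for some genes than for others, and the order of genes and groups is approximate. Taking each gene at its mean over the 12 samples, the medians were 572 normalized counts per kilobase for the 9 fatty acid enzymes, 331 for the 6 regulators and transport genes and 104 for the 18 sterol enzymes. The ranges were 72.9 to 1565, 26.4 to 487 and 15.5 to 314, with Elovl6 and Acaca below the sterol enzyme median and Scap and Srebf1 above Fasn. Scd2, a stearoyl-CoA desaturase that puts the first double bond into saturated chains, was highest at 1565 per kilobase, and its lowest sample was above the highest sample of the next gene. Acly followed at 1005, Elovl5, an elongase of polyunsaturated chains, at 881, and Fads1, the delta-5 desaturase, at 638. Among sterol enzymes the highest were Ebp, the sterol isomerase, at 314 and Hmgcs1, the cytosolic HMG-CoA synthase, at 296. Idi1, which interconverts isopentenyl and dimethylallyl diphosphate, was lowest at 15.5. Of the 32 pairs of neighbours in this order, 30 had sample ranges that overlapped, and only Scd2 at the top and Idi1 at the bottom were clear of the next gene. Members also differed in how far they varied, from 1.16-fold between the highest and the lowest sample for Sc5d, a sterol desaturase, to 3.03-fold for Tm7sf2, a sterol reductase.

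**Figure D1:**
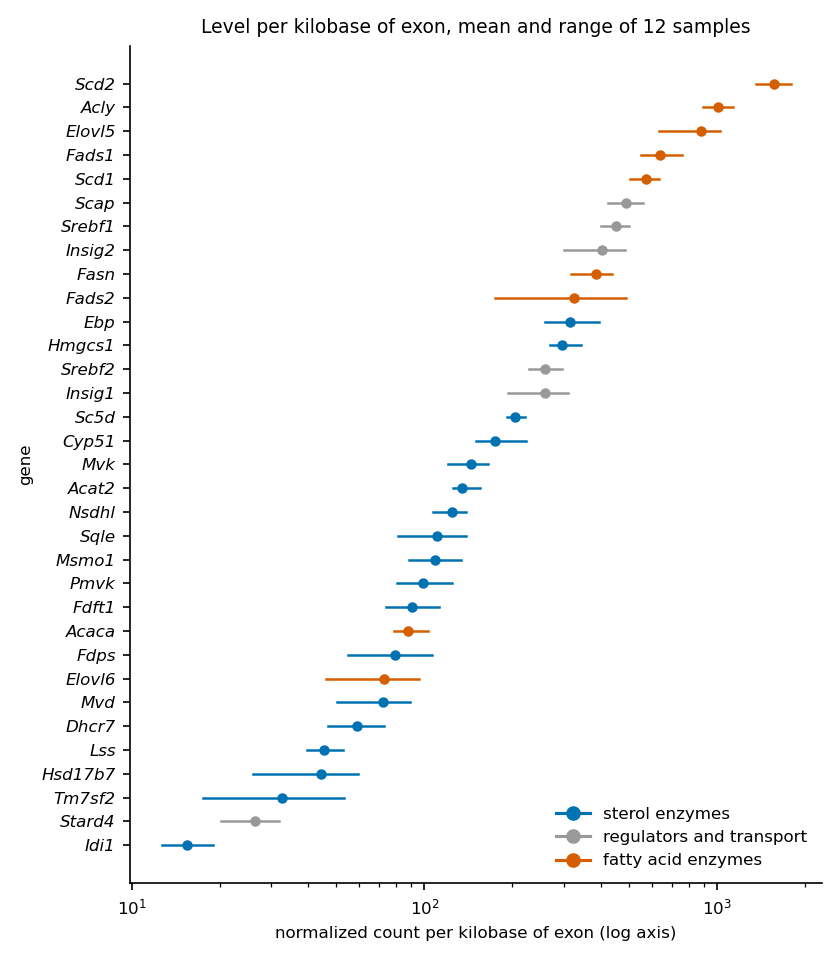
Normalized count per kilobase of exon (log axis) for the 33 genes, with a point at the mean of the 12 samples and a line from the lowest to the highest sample, colored by role. Scd2 lies highest at 1565 and Idi1 lowest at 15.5, and the neighbours between them overlap.

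Promoter windows from RefSeq (GRCm38.p6), 250 bases before to 50 bases after a gene's start, were held for 26 of the 33 members. Letters were searched on both strands. The sterol regulatory element core TCACNCCAC was found in 1 of the 26 genes, Hmgcs1, and in 1.44% of all 27025 genes with such a window. CCAAT, which NF-Y binds, was in 21 of 26 members, or 80.8%, against 41.1% of all genes and 43.4% of those measured here. The GC box GGGCGG, which SP1 binds, was also in 21 of 26, against 38.2% of all genes and 70.9% of those measured. The full palindrome of the estrogen response element was in 0 of 26 members and in 0.074% of all genes, and the E-box TCACGTGA was in 0 of 26 and in 1.12%. These are matches of letters in a window and not binding sites. Other spellings of these elements were not searched and 7 members had no window, so a gene without a match may still hold an element. Upstream stretches are shown for Hmgcs1, because it alone matched the searched core of the sterol element, with matches in capitals. Stretches are also shown for Mvd and Dhcr7, which are described further on, and for the regulators Srebf2 and Insig1. Each is on the strand of the gene and ends at the base before the start of the gene in the GENCODE M21 annotation, or earlier, so that no exon is shown. Hmgcs1 is at chr13:119690101-119690350 (plus strand), Mvd at chr8:122443423-122443672 (minus), Dhcr7 at chr7:143822917-143823144 (plus), Srebf2 at chr15:82147019-82147180 (plus) and Insig1 at chr5:28071162-28071362 (plus).
Hmgcs1: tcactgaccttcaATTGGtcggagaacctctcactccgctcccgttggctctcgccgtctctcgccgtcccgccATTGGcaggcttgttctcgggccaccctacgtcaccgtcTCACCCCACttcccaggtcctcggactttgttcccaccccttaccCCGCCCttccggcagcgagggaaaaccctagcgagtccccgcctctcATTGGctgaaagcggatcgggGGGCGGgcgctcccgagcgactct
Mvd: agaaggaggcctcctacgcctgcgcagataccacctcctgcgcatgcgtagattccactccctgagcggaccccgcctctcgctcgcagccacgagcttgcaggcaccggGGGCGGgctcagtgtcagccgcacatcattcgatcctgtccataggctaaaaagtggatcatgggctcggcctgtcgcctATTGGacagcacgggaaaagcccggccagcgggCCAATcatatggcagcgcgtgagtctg
Dhcr7: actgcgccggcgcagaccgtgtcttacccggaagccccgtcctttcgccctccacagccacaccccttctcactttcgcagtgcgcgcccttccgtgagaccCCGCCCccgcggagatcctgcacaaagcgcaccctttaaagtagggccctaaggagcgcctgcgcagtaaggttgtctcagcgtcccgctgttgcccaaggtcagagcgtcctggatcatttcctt
Srebf2: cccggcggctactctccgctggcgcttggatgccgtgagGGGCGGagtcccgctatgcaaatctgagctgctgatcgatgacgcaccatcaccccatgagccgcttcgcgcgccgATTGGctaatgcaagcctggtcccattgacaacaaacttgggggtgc
Insig1: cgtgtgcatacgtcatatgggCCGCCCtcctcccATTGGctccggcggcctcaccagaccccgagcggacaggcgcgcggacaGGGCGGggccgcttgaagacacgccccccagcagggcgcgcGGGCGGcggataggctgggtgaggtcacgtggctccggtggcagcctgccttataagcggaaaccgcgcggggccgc
In the stretch of Hmgcs1 the sterol element starts 137 bases before the RefSeq start, with CCAAT boxes at 237, 176 and 45 bases and GC boxes at 92 and 24. Matches on the other strand appear as the reverse complement. Mvd shows a pair of CCAAT matches at 60 and 27 bases before the start and a GC box at 140, and the stretch of Dhcr7 shows a GC box at 148. Another RefSeq window of Dhcr7, not shown, holds CCAAT at 85 and 49 and GC boxes at 187, 171 and 20. The stretch of Srebf2 has CCAAT at 135 and a GC box at 211, and the rest of its window holds 4 more GC boxes. Insig1 has CCAAT at 216 and GC boxes at 229, 167 and 126. The RefSeq window of Fads2 held 1 GC box and no CCAAT, and its bases are not shown because they lie in the first exon of the GENCODE transcript.

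The comparison of E2 with E2 plus fulvestrant asks what blocking the receptor does when E2 is present, and fulvestrant against vehicle asks the same without added E2. The clearest change among the members was in Fads2, which encodes the delta-6 desaturase, the first step from linoleic and alpha-linolenic acid to longer polyunsaturated chains. Fads2 was lower with fulvestrant whether or not E2 was added. Insig1 moved the opposite way. No sterol enzyme was called in a comparison of treatment groups over all 12 samples, and which of them were called when samples were left out is given with their values. In E2 against E2 plus fulvestrant, 2 of 33 members were called, or 6.06%, beside a background of 9.60% of all genes. In fulvestrant against vehicle, 2 of 33 were called, beside 12.5% of all genes. In E2 plus fulvestrant against vehicle, 3 of 33 were called, or 9.09%, beside 12.7%. Which of the shares was higher, that of members or that of all genes, changed in each of these 3 comparisons with the samples left out. It was 12.1% of members and 10.4% of genes in the first without vehicle replicate 1, 3.03% and 3.02% in the second without replicate 3, and 9.09% and 8.46% in the third without E2 plus fulvestrant replicate 3.

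**Figure D2:**
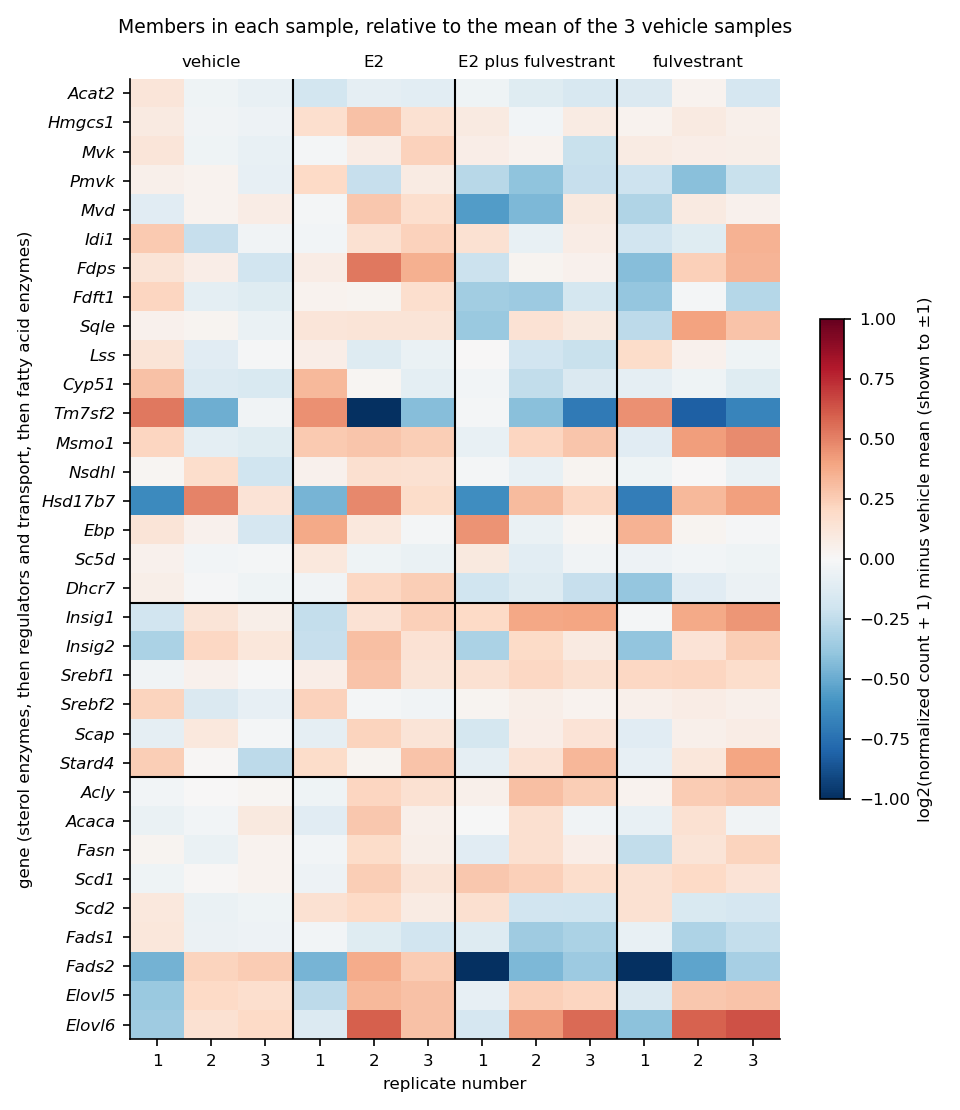
Log2(normalized count + 1) of the 33 genes in each of the 12 samples, minus the mean of the 3 vehicle samples of that gene, with columns by group and replicate number and colors limited to ±1. Fads2 is lower in the 6 samples with fulvestrant than in the same-numbered samples without it, and Hsd17b7, Tm7sf2, Elovl5 and Elovl6 differ between replicate 1 and the other numbers in every group.

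Fads2 (ENSMUSG00000024665, chr19:10062765-10101746 of mm10, minus strand) had 901, 1458 and 1488 normalized counts in vehicle replicates 1 to 3 and 907, 1614 and 1490 with E2. It had 618, 916 and 970 with E2 plus fulvestrant and 576, 869 and 992 with fulvestrant alone. Replicate 1 was the lowest sample of every group, so the groups overlapped when numbers were ignored, but within each number both samples with fulvestrant lay below both samples without it. The difference of E2 minus E2 plus fulvestrant was 0.66 on the log2 scale (SE 0.067, 95% interval 0.52 to 0.81, adjusted p = 0.000163), or 1.58-fold, positive in 3 of 3 numbers. Fulvestrant minus vehicle was -0.66 (SE 0.067, adjusted p = 0.000164), negative in 3 of 3. E2 minus vehicle was 0.05 (95% interval -0.09 to 0.20), and the effect of E2 differed by 0.00 with and without fulvestrant (interval -0.20 to 0.21). A fit with no replicate block, in which the spread between numbers counts as error, gave the same 0.66 with an adjusted p of 0.699, and no member was called in that fit.

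Fads1, on the same chromosome at 19:10182888-10196877 (plus strand), encodes the delta-5 desaturase that acts later in the same route. Its normalized counts were 3664, 3242 and 3265 with vehicle, 3316, 3117 and 2967 with E2, 3087, 2644 and 2721 with E2 plus fulvestrant, and 3218, 2735 and 2872 with fulvestrant alone. Each vehicle sample was above the 3 samples of its number from the other groups. Fads1 fell by 0.27 on the log2 scale from vehicle to E2 plus fulvestrant (SE 0.045, adjusted p = 0.00293). That call was lost without replicate 2 (adjusted p = 0.0529) or 3 (0.0695) of all groups, and without E2 plus fulvestrant replicate 2, where the fold was under 1.2. In the other comparisons with fulvestrant its adjusted p was under 0.05 but the fold was under 1.2: it was 0.16 in E2 minus E2 plus fulvestrant (adjusted p = 0.0496, and 0.0601 without replicate 1) and -0.21 in fulvestrant minus vehicle (adjusted p = 0.0122). Fads3, the neighbouring gene of the same cluster on chr19:10041569-10060110, is no member and went the other way. It was -0.38 in E2 minus E2 plus fulvestrant (SE 0.072, adjusted p = 0.00731) and 0.28 in fulvestrant minus vehicle (adjusted p = 0.0231).

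**Figure D3:**
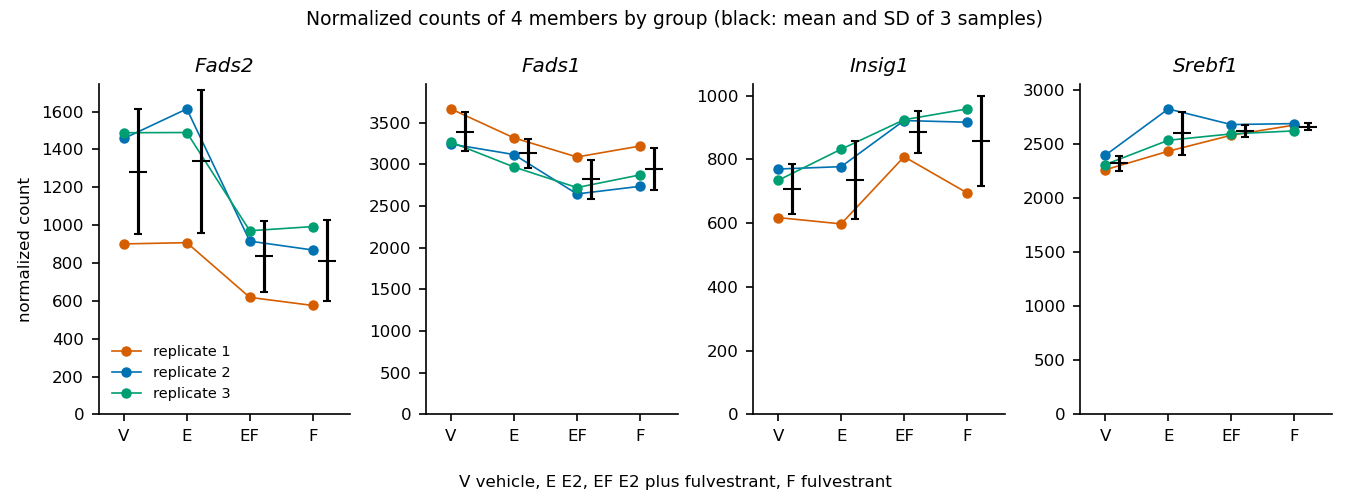
Normalized counts of Fads2, Fads1, Insig1 and Srebf1 by group, with colored points and lines joining samples of the same replicate number and black bars for the mean and SD of 3 samples. Fads2 spans 901 to 1614 without fulvestrant and 576 to 992 with it, and each of its 3 lines drops between E2 and E2 plus fulvestrant.

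The other 7 fatty acid enzymes were not called in any comparison over all 12 samples. Fasn, the fatty acid synthase, had 4195, 3924 and 4206 normalized counts with vehicle, 4031, 4655 and 4269 with E2, 3787, 4590 and 4296 with E2 plus fulvestrant and 3466, 4480 and 4792 with fulvestrant. The lowest and the highest of these 12 values were both in the fulvestrant group, and all groups overlapped. E2 minus E2 plus fulvestrant was 0.03 for Fasn (95% interval -0.16 to 0.22). Acaca, the acetyl-CoA carboxylase that feeds it, was at 0.03 (interval -0.13 to 0.19).

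Acly was 0.19 in fulvestrant minus vehicle (adjusted p = 0.0361) and 0.20 in E2 plus fulvestrant minus vehicle (adjusted p = 0.0292), both under the 1.2-fold limit, and was higher with fulvestrant in 6 of 6 same-numbered pairs. Scd1 had 2489, 2578 and 2620 with vehicle, 2475, 3038 and 2800 with E2, 3093, 3017 and 2895 with E2 plus fulvestrant, and 2840, 2943 and 2819 with fulvestrant. All 6 of its samples with fulvestrant were above the 3 vehicle samples, while E2 overlapped both. Its difference of E2 plus fulvestrant minus vehicle was 0.23 (SE 0.062, adjusted p = 0.0307, and 0.0507 without replicate 1), again under the fold limit.

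Scd2 had 9155, 8091 and 8261 with vehicle and 9431, 9737 and 8972 with E2. It had 9500, 7441 and 7405 with E2 plus fulvestrant and 9445, 7645 and 7544 with fulvestrant. Replicate 1 stayed between 9155 and 9500 in the 4 groups, whereas replicates 2 and 3 were lower with fulvestrant. E2 minus E2 plus fulvestrant was 0.22 over the 3 numbers (95% interval 0.06 to 0.38, adjusted p = 0.0737), 0.33 without replicate 1 (adjusted p = 0.00351, called) and 0.31 without E2 replicate 1 alone (adjusted p = 0.0189, called). Scd1 and Scd2 are close copies, so reads could be exchanged between them. Elovl5 was -0.01 and Elovl6, an elongase of saturated chains, was -0.02 in E2 minus E2 plus fulvestrant. In fulvestrant minus vehicle they were 0.14 (adjusted p = 0.145) and 0.27 (adjusted p = 0.142). Without replicate 1, Elovl6 was 0.44 in the latter (adjusted p = 0.0209, called), and it was 0.42 without fulvestrant replicate 1 alone (adjusted p = 0.0213, called). The median over the 9 fatty acid enzymes was 0.03 in E2 minus E2 plus fulvestrant and 0.03 in fulvestrant minus vehicle, beside -0.01 and 0.01 for all genes.

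Among the regulators, Insig1 (ENSMUSG00000045294), itself a target of SREBP, was the only one called between treatment groups. It had 618, 770 and 734 normalized counts with vehicle, 598, 777 and 832 with E2, 809, 922 and 925 with E2 plus fulvestrant, and 695, 917 and 958 with fulvestrant. In each number both samples with fulvestrant were above both samples without it. Across numbers, vehicle and E2 plus fulvestrant did not overlap, whereas E2 overlapped E2 plus fulvestrant and vehicle overlapped fulvestrant. E2 minus E2 plus fulvestrant was -0.28 (SE 0.071, 95% interval -0.43 to -0.12, adjusted p = 0.0282), and fulvestrant minus vehicle was 0.27 (SE 0.071, adjusted p = 0.0264). E2 plus fulvestrant minus vehicle was 0.33 (adjusted p = 0.0105), a call lost without vehicle replicate 3 (0.0545) or E2 plus fulvestrant replicate 1 (0.0646). In E2 against E2 plus fulvestrant the call was lost without replicate 1 of all groups (-0.20, adjusted p = 0.113), without replicate 2 (0.201) or 3 (0.106), and with only these groups in the fit (0.0731). It was also lost, with an adjusted p between 0.0574 and 0.139, when E2 replicate 1 or 2 or any single sample of E2 plus fulvestrant was left out, and in fulvestrant against vehicle when replicate 2 or 3 of either group was left out (0.0614 to 0.119), when replicate 2 (0.183) or 3 (0.262) was left out of all groups, and with only these groups in the fit (0.137). Without replicate 2 or 3 of all groups it was lost in E2 plus fulvestrant against vehicle as well (0.0924 and 0.0968).

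Srebf1 had 2263, 2398 and 2311 with vehicle and 2434, 2825 and 2536 with E2. It had 2582, 2681 and 2595 with E2 plus fulvestrant and 2676, 2690 and 2622 with fulvestrant. The 3 vehicle samples lay below the other 9. Fulvestrant minus vehicle was 0.20 (SE 0.049, adjusted p = 0.0206) and E2 plus fulvestrant minus vehicle 0.17 (adjusted p = 0.0344), both under the fold limit and at an adjusted p of 0.0537 and 0.0803 without replicate 1, and E2 minus vehicle was 0.16 (interval 0.05 to 0.27, adjusted p = 0.456). E2 minus E2 plus fulvestrant was -0.01 (interval -0.12 to 0.09). The counts of Srebf1 do not separate its SREBP-1a and SREBP-1c transcripts.

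Srebf2 had 2106, 1631 and 1706 with vehicle, 2119, 1784 and 1762 with E2, 1833, 1881 and 1850 with E2 plus fulvestrant, and 1864, 1899 and 1868 with fulvestrant. Replicate 1 was the highest sample of the groups without fulvestrant and the lowest of those with it. Its difference of E2 minus E2 plus fulvestrant over all numbers was 0.02 (interval -0.15 to 0.19). Scap had 3342, 3822 and 3510 with vehicle, 3339, 4142 and 3877 with E2, 3152, 3729 and 3896 with E2 plus fulvestrant, and 3278, 3684 and 3735 with fulvestrant. The groups overlapped throughout, with 0.08 in E2 minus E2 plus fulvestrant (interval -0.04 to 0.19) and 0.00 in fulvestrant minus vehicle.

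Insig2, the other INSIG gene, had 1098, 1578 and 1476 with vehicle, 1165, 1682 and 1511 with E2, 1097, 1563 and 1452 with E2 plus fulvestrant, and 1043, 1506 and 1622 with fulvestrant. Its groups overlapped, and replicate 1 was below every sample of the other numbers. E2 minus E2 plus fulvestrant was 0.08 (interval -0.05 to 0.22), so that Insig1 and Insig2 differed in the sign of their values. Stard4, which carries sterol between membranes, was low, with 113 to 178 normalized counts, and was at 0.04 with a wide interval of -0.35 to 0.42.

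**Figure D4:**
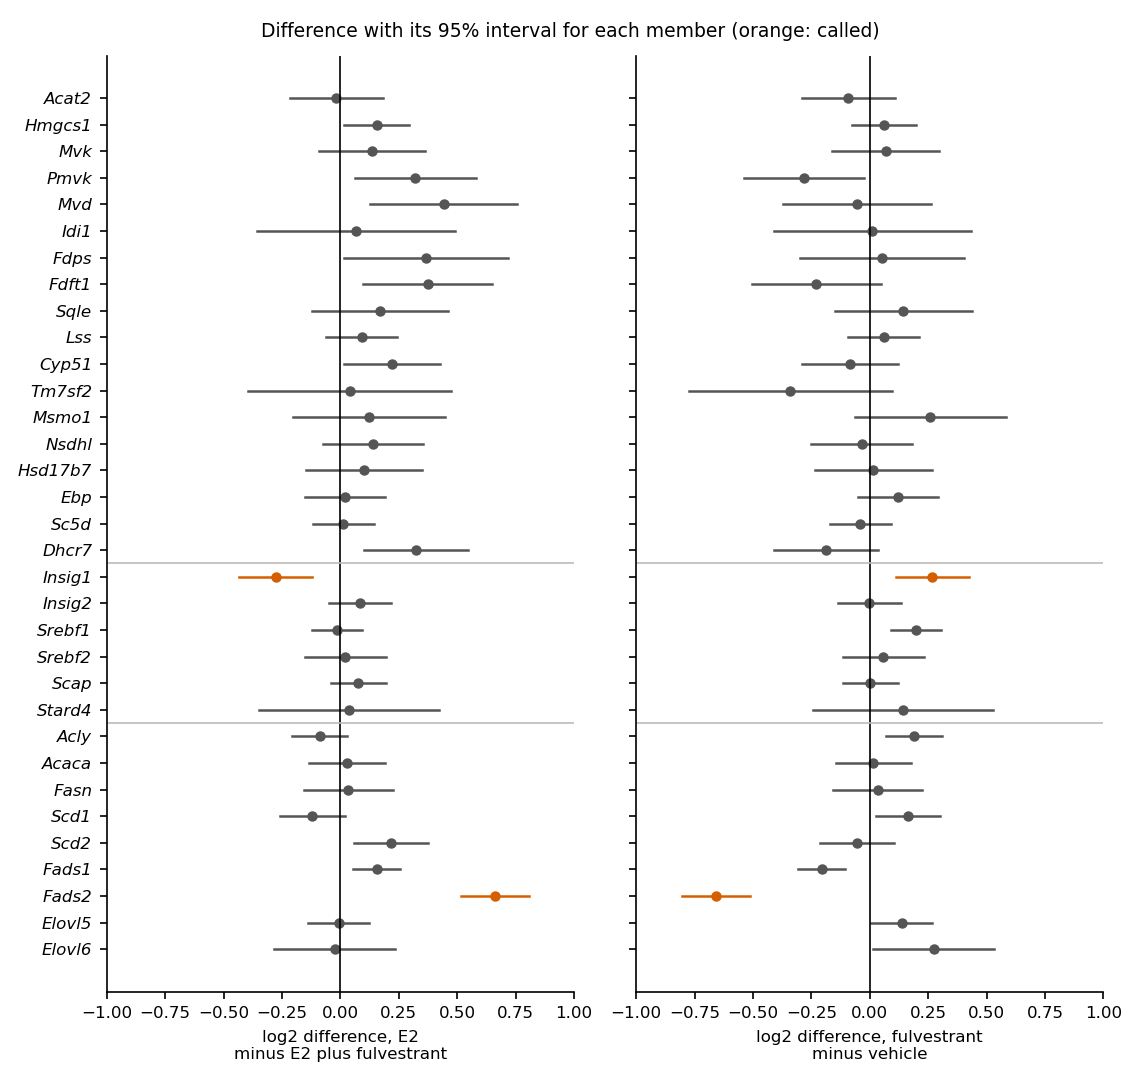
Log2 difference and 95% interval for each gene in E2 minus E2 plus fulvestrant (left) and fulvestrant minus vehicle (right), with called genes in orange. Fads2 (0.66 and -0.66) and Insig1 (-0.28 and 0.27) are the called genes, and most sterol enzymes lie slightly right of 0 on the left and on both sides of 0 on the right.

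Of the 18 sterol enzymes, 17 had lower values when fulvestrant was added to E2, and the exception was Acat2, the cytosolic thiolase, at -0.02. None was called, and 7 (38.9%) had an unadjusted p under 0.05, beside 27.3% of all genes. The median of the 18 was 0.14, beside -0.01 for all genes, of which 47.4% were higher with E2 alone. The median was 0.16, 0.17 and 0.10 within replicates 1, 2 and 3, where 14, 16 and 14 of the 18 were lower when fulvestrant was added. With quantile normalization or CPM, the count was again 17 of 18. The largest values were 0.44 for Mvd, the mevalonate diphosphate decarboxylase (95% interval 0.13 to 0.76, adjusted p = 0.0694), 0.37 for Fdft1, the squalene synthase (interval 0.10 to 0.65, adjusted p = 0.0801), 0.36 for Fdps, the farnesyl diphosphate synthase (interval 0.01 to 0.72, adjusted p = 0.166), and 0.32 for Dhcr7, the 7-dehydrocholesterol reductase (interval 0.10 to 0.55, adjusted p = 0.0606). Whether Mvd, Fdft1 and Dhcr7 were called turned on single samples. Without vehicle replicate 1, which belongs to neither group, Fdft1 (adjusted p = 0.0387) and Dhcr7 (0.0441) were called, Dhcr7 was called without fulvestrant replicate 1 (0.0422), and Mvd was called at 0.61 without E2 plus fulvestrant replicate 3 (0.0335). Fdft1 was also called with only these groups in the fit (0.0447). Mvd had 136, 166 and 155 normalized counts with E2 and 93.6, 101 and 147 with E2 plus fulvestrant. Dhcr7 had 346, 410 and 422 with E2 and 309, 325 and 303 with E2 plus fulvestrant, and these groups did not overlap. Fdps shared 26.7% of its exon bases with Gm43738 on the same strand, which could have taken or given reads.

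The same enzymes were split in direction when E2 was absent. In fulvestrant minus vehicle, 9 of 18 were positive, with a median of -0.01 and values from -0.34 for Tm7sf2 to 0.26 for Msmo1, the sterol C4 methyl oxidase. The sign of that median depended on the scaling, with 0.02 and 10 positive by quantile normalization and -0.05 and 7 positive by CPM. It also depended on the replicate number, with a median of -0.22 and 2 of 18 positive in replicate 1, 0.08 and 11 in replicate 2, and 0.07 and 10 in replicate 3. The sign of the fulvestrant difference was the same with and without E2 for 8 of 18 sterol enzymes, against 7 of 9 fatty acid enzymes and 73.9% of all genes. These comparisons share no sample. Pmvk, the phosphomevalonate kinase, and Dhcr7 were the only sterol enzymes lower with fulvestrant in 6 of 6 same-numbered pairs, which is 11.1% of the 18, beside 12.1% of all genes. Pmvk had 192, 190 and 175 with vehicle against 161, 138 and 159 with fulvestrant, a difference of -0.28 (interval -0.54 to -0.02, adjusted p = 0.129), and was 0.32 in E2 minus E2 plus fulvestrant (adjusted p = 0.101).

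Hmgcs1, whose window matched the sterol element core, had 1364, 1254 and 1239 normalized counts with vehicle and 1441, 1573 and 1427 with E2. It had 1367, 1262 and 1359 with E2 plus fulvestrant and 1316, 1371 and 1331 with fulvestrant. The 3 samples with E2 alone were above the other 9. E2 minus vehicle was 0.20 (SE 0.062, interval 0.07 to 0.34, adjusted p = 0.456) and E2 minus E2 plus fulvestrant was 0.15 (interval 0.02 to 0.29, adjusted p = 0.135), so neither was called. Over all members, 0 of 33 were called in E2 against vehicle, where the background was 0.0756% of all genes (10 genes), and 28 of 33 were positive against 53.7% of all genes, with a median of 0.10. In replicate 1 alone, 17 of 33 were positive, against 49.6% of all genes, with 25 in replicate 2 and 27 in replicate 3. By unadjusted p under 0.05 there were 3 of 33, or 9.1%, beside 10.1% of all genes. Without replicate 1 there were 10 of 33, or 30.3%, beside 15.6% of all genes, and again 0 were called. The largest positive values were then 0.50 for Fdps (adjusted p = 0.135) and 0.37 for Msmo1 (adjusted p = 0.0998), and Tm7sf2 fell by more than Msmo1 rose. In E2 plus fulvestrant against fulvestrant, 0 members and 0 of all genes were called, and by unadjusted p under 0.05 there were 255 genes and 1 member, Lss, the lanosterol synthase, at -0.20 (interval -0.35 to -0.04). Without replicate 1 there were 770 genes and 2 members, Sqle (-0.22) and Msmo1 (-0.20). For the difference of the E2 effect with and without fulvestrant, 0 members and 0 of all genes were called, and 2 members and 501 genes had an unadjusted p under 0.05. Its largest member values were 0.42 for Fdps (interval -0.08 to 0.91) and 0.39 for Mvd (interval -0.06 to 0.83). Without replicate 1, again 0 members were called, beside 0.0831% of all genes (11 genes), but 9 of 33 members (27.3%) had an unadjusted p under 0.05, beside 10.5% of all genes. Fdps was then 0.76 (interval 0.38 to 1.14, adjusted p = 0.333) and Msmo1 0.57 (interval 0.32 to 0.82, adjusted p = 0.275).

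Sqle, the squalene epoxidase and a rate-limiting step of the route, had 598, 592 and 554 with vehicle and 632, 635 and 636 with E2. It had 449, 642 and 622 with E2 plus fulvestrant and 486, 768 and 709 with fulvestrant. In replicate 1 the samples with fulvestrant were the lowest of all 12, and in replicates 2 and 3 the samples with fulvestrant alone were the highest of all 12. Over the 3 numbers, E2 minus E2 plus fulvestrant was 0.17 (interval -0.12 to 0.46) and fulvestrant minus vehicle 0.14 (interval -0.15 to 0.44). The difference between replicate 1 and the other numbers was then tested as a term of its own, a test chosen after these values were seen.

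The fulvestrant effect, averaged over both comparisons, was called different between replicate 1 and replicates 2 and 3 for 3 of 33 members, or 9.09%, beside 6.87% of all genes (909 genes). All 3 were lower in replicate 1, beside 3.39% of all genes called in that direction. Replicate 1 is a single number and the term was prompted by Sqle, so its p-values describe these samples and are no independent evidence. The 3 members were Sqle (-0.57, SE 0.098, adjusted p = 0.00423), Msmo1 (-0.60, SE 0.12, adjusted p = 0.0121) and Srebf2 (-0.32, SE 0.068, adjusted p = 0.0152). Msmo1 had 685, 552 and 542 with vehicle, 707, 715 and 700 with E2, 560, 686 and 716 with E2 plus fulvestrant, and 545, 788 and 821 with fulvestrant. In replicate 1 its differences with fulvestrant were -0.33 against vehicle and -0.34 against E2. In replicates 2 and 3 they were 0.51 and 0.60 against vehicle and -0.06 and 0.03 against E2. Srebf2 was lower with fulvestrant in both pairs of replicate 1 and higher in all 4 pairs of replicates 2 and 3, and the same held for Stard4 (-0.53, SE 0.21, adjusted p = 0.18). Scd2 went the other way, slightly higher in both pairs of replicate 1 and lower in the rest (0.25, SE 0.074, adjusted p = 0.0706). Opposite signs in every pair were thus seen for 3 of 33 members (9.09%), beside 5.86% of all genes. For Fads2 and Insig1 the numbers differed by 0.09 (interval -0.12 to 0.30) and 0.04 (interval -0.19 to 0.27).

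**Figure D5:**
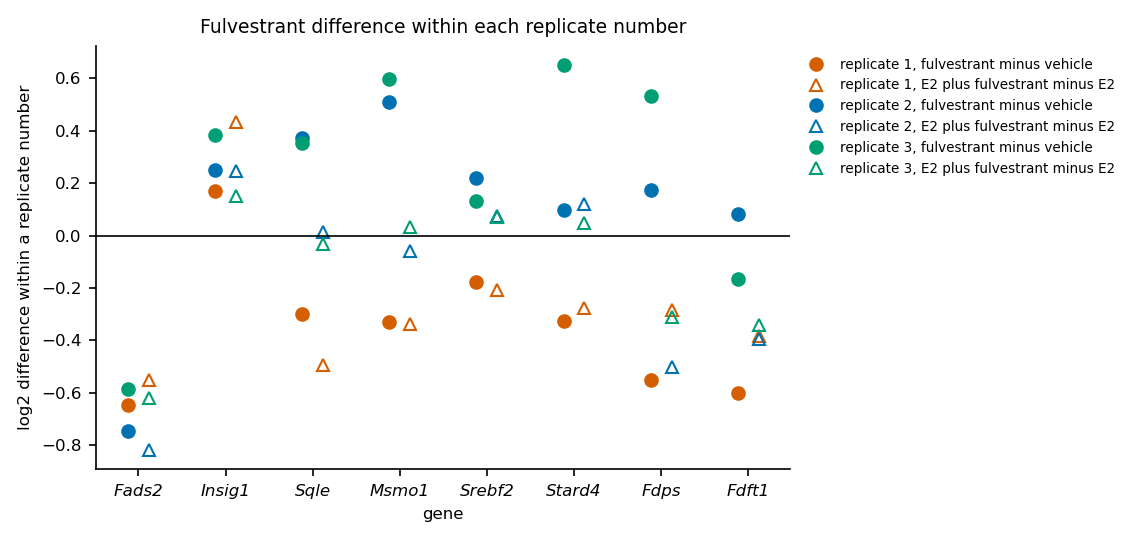
Log2 difference within each replicate number for 8 genes, with filled circles for fulvestrant minus vehicle and open triangles for E2 plus fulvestrant minus E2, colored by replicate number. All 6 points of Fads2 lie between -0.82 and -0.55 and all 6 of Insig1 above 0, whereas replicate 1 lies below the other numbers for Sqle, Msmo1, Srebf2 and Stard4.

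With replicate 1 left out of every group, the sterol enzymes called were Sqle (0.36, adjusted p = 0.0102) and Msmo1 (0.55, adjusted p = 0.000843) in fulvestrant minus vehicle, and Dhcr7 (0.41, adjusted p = 0.0286) and Fdps (0.41, adjusted p = 0.0488) in E2 minus E2 plus fulvestrant. Msmo1 was also called in E2 plus fulvestrant minus vehicle, at 0.36. Leaving out vehicle replicate 1 or fulvestrant replicate 1 alone was enough to call Msmo1 in fulvestrant minus vehicle (adjusted p = 0.0304 and 0.0365), and Tm7sf2 was called in E2 plus fulvestrant minus vehicle without E2 plus fulvestrant replicate 2 (-0.64, adjusted p = 0.0441). With all of replicate 1 left out, members called were 5 of 33 in fulvestrant against vehicle, beside 17.5% of all genes, and 4 of 33 in E2 against E2 plus fulvestrant, beside 12.2%. Of the 18 sterol enzymes, 17 were lower when fulvestrant was added to E2, the exception now being Tm7sf2 (-0.18) and not Acat2 (0.04), and 4 (22.2%) had an unadjusted p under 0.05, beside 28.9% of all genes. Marker sums moved with the number too. The 4 of 8 mural and glial markers that were listed summed to 3617 to 4501 in replicate 1 and 2051 to 2762 in the other samples, and the 1 endothelial marker listed, Tek, was at 58.4 to 83.7 against 157 to 277. The 4 of 11 adipocyte markers that were listed (Plin4, Pparg, Cebpa and Lipe) summed to 905 to 1127 normalized counts in the 4 samples of replicate 1 and to 2125 to 2321 in the other 8. Plin4 and Lipe passed the same test as Sqle, but with the fulvestrant effect higher in replicate 1. The fibroblast markers Thy1, Lum and Dcn passed it too, 2 of them higher and 1 lower in replicate 1. So did the immune marker Lyz2 (lower) and the mural marker Cspg4 (higher). Their part in the result was not tested.

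Replicate 1 also differed in level from the other numbers in every group for some members. Tm7sf2 was on average 1.91-fold higher in replicate 1, with 161 to 234 normalized counts there and 77.3 to 158 elsewhere. Hsd17b7, the 3-ketosteroid reductase of sterol synthesis, was 1.90-fold lower, with 133 to 155 against 236 to 303. Elovl6 was 1.63-fold lower, Fads2 1.62-fold, Insig2 1.41-fold and Elovl5 1.38-fold. The first 4 of these exceed the 1.58-fold treatment difference of Fads2, which was the largest of any member. Tm7sf2 shared 12.1% of its exon bases with Vps51. What the number stands for is not given in the sources used here.

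Genes of the same pathways outside the 33 were called as follows, beside 9.60% of all genes in E2 against E2 plus fulvestrant and 12.5% in fulvestrant against vehicle. Of 8 other sterol enzymes and electron donors, 1 (12.5%) was called in the former and 2 (25%) in the latter. Por, the reductase that supplies electrons to CYP51 and SQLE, was called in both. It was at -0.35 in E2 minus E2 plus fulvestrant (adjusted p = 0.0122) and 0.51 in fulvestrant minus vehicle (adjusted p = 0.00132). Of 9 genes of SREBP processing and sterol sensing, 1 was called in each, Erlin1, whose product is a membrane protein of the endoplasmic reticulum, at -0.31 and 0.38. Of 14 genes of sterol uptake and transport, 1 was called in each, Lrp8, a lipoprotein receptor, at -0.98 and 1.03.

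Of 9 genes of LXR and sterol efflux, 2 (22.2%) were called in each comparison. Nr1h3, which encodes LXR alpha, was -0.85 in E2 minus E2 plus fulvestrant (44.4 against 80.5 normalized counts on average, adjusted p = 0.00801) and 0.78 in fulvestrant minus vehicle (adjusted p = 0.0103). Cyp7b1, the oxysterol 7-alpha-hydroxylase, was 1.67 (151 against 44.8, adjusted p = 0.000195) and -1.23. Of 20 other genes of fatty acid synthesis, 6 (30%) were called in the former, 2 higher and 4 lower with E2, and 5 (25%) in the latter, all higher with fulvestrant. Those with the largest values in the former were Acss2, the cytosolic acetyl-CoA synthetase, at 0.41, Fads3, Aacs, the acetoacetyl-CoA synthetase, at -0.35, and Mid1ip1, an activator of acetyl-CoA carboxylase, at -0.33. In the latter, Mid1ip1 was 0.50, Aacs 0.47, Acsl4, an arachidonate-preferring acyl-CoA synthetase, 0.45, and Hsd17b12, the ketoacyl reductase of chain elongation, 0.33.

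Of 11 genes of glycerolipid synthesis, 3 (27.3%) were called in each comparison, beside the same 9.60% and 12.5%. Lpin3, a phosphatidate phosphatase, was -1.18 in E2 minus E2 plus fulvestrant (211 against 480 normalized counts, adjusted p = 0.00189) and averaged 487 with fulvestrant against 188 with vehicle (adjusted p = 0.000678). Gpam, the mitochondrial glycerol-3-phosphate acyltransferase, was 0.56 and Lpin2 was -0.32 in the former. In the latter, Dgat2, which makes triacylglycerol, was 0.78 (89.9 against 52.1) and Gpat3, another such acyltransferase, was 0.48. Leaving out a single sample ended some of these calls, namely Por, Erlin1, Lrp8, Acss2, Mid1ip1 and Acsl4 in E2 against E2 plus fulvestrant, with an adjusted p of up to 0.186, and Lrp8, Fads3, Hsd17b12, Dgat2 and Gpat3 in fulvestrant against vehicle, with one of up to 0.125. Over all alternatives of the processing, Nr1h3, Aacs, Gpam, Lpin2 and Fads3 each lost the call in E2 against E2 plus fulvestrant in 3. Cyp7b1 lost it in 1, and Lpin3 kept its calls in all 23. None of the genes in these 6 lists was called in E2 against vehicle.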

How the data were processed

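RNA-Seq of 12 HAF samples was analysed from 1 deposited table. Per the labels and the methods of the study, the authors made total RNA libraries after ribosomal RNA depletion, used Trimmomatic 0.39 for trimming and SortMeRNA to take out ribosomal RNA, mapped the rest to mm10 by STAR 2.5.2, counted genes by strand with HTSeq 0.13.5, removed low counts and applied the median-of-ratios factors of DESeq2 1.37. A batch correction is described, and whether it touched these values is not given in the sources used here. The deposited signal is therefore a normalized count per gene. Multiplied by 1 factor per sample, all values came out whole within 0.02, which gave the reads and the depths.

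Symbols and exon lengths came from GENCODE M21, with a symbol for 13149 of 13233 genes and the exons of all transcripts of a gene merged. Values were taken as log2(normalized count + 1), so fold changes of low genes are understated, and fitted in limma 3.58.1 (R 4.3.3) with group and replicate number as terms over all 12 samples, a mean-variance trend and Benjamini-Hochberg adjustment over all 13233 genes. Calls needed an adjusted p under 0.05 and a fold over 1.2. The block was used because samples of the same number deviated together, with 10 of 12 correlating best with their own number. The r was 0.84 to 0.92 for number 1, 0.66 to 0.80 for number 2 and 0.63 to 0.78 for number 3. Samples of numbers 2 and 3 also correlated, at 0.63 to 0.79, so these numbers were hardly set apart from each other. The fit was tested on simulated data. Alternatives were no block, only the groups compared, a pseudocount of 10, a mean of at least 100, no variance trend, quantile normalization, CPM, no fold limit and leaving out samples.

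The members and lists were chosen with earlier results of these data known. Members called in any comparison and 10 set members (Srebf1, Srebf2, Scap, Insig1, Insig2, Hmgcs1, Sqle, Fasn, Scd1 and Scd2) are described in full. The other members with values were picked after their values were seen, and of other lists at most the 4 largest called genes are named per comparison. Promoter sequences are from RefSeq (GRCm38.p6). Some genes of these lists are not reported here.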

Additional observations from a re-analysis of the deposited data

Results flagged for a closer look

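The fulvestrant effect in replicate 1 differed from that in replicates 2 and 3 for 3 members in a term of the limma fit that was added because of the values of Sqle. Replicate 1 is a single number, so the term describes these samples and is no independent evidence of a difference. The differences were -0.57 for Sqle, -0.60 for Msmo1 and -0.32 for Srebf2. Leaving out 1 sample at a time moved them between -0.63 and -0.52, between -0.76 and -0.44 and between -0.36 and -0.28. The calls of Msmo1 and Srebf2 were lost without vehicle replicate 1 (adjusted p = 0.120 and 0.129) or fulvestrant replicate 1 (0.118 and 0.0765), and that of Srebf2 without a variance trend (0.0544).

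For Abca1, which exports cholesterol and is a target of LXR, the same difference was 1.19 and moved between 1.02 and 1.36 when 1 sample at a time was left out. This gene is no member and was looked at after its values were seen. The 3 numbers are not described further in the labels, so what sets replicate 1 apart cannot be told.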

How the results depend on the processing

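With no replicate block, 0 members were called in the 3 comparisons that had calls, and the genes called were 69 in E2 against E2 plus fulvestrant, 1 in E2 against vehicle, 72 in fulvestrant against vehicle and 60 in E2 plus fulvestrant against vehicle. Fads2 then had an adjusted p of 0.699, 0.671 and 0.714 in the 3 comparisons with calls, and Insig1 0.857, 0.864 and 0.702. Fads2 kept each call in 22 of 23 alternatives, the exception being the fit with no replicate block. Insig1 kept its call in 12, 14 and 18 of 23, and Fads1 in 19 of 23 in E2 plus fulvestrant against vehicle. With only the groups compared, 57 genes were called in E2 against vehicle, and 692 genes and 1 member in fulvestrant against vehicle. With no variance trend, 3 genes were called in E2 against vehicle. CPM, chosen after seeing the data, gave 1 member in E2 against E2 plus fulvestrant and 1 in fulvestrant against vehicle. By adjusted p alone, 5 members passed in fulvestrant against vehicle and 6 in E2 plus fulvestrant against vehicle.

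Leaving out single samples or a whole number gave 1 to 4 members and 316 to 1611 genes in E2 against E2 plus fulvestrant, 0 to 59 genes in E2 against vehicle, 1 to 5 members and 399 to 2312 genes in fulvestrant against vehicle, and 1 to 4 members and 541 to 1916 genes in E2 plus fulvestrant against vehicle. It gave 0 to 4 genes in E2 plus fulvestrant against fulvestrant and 0 to 11 for the difference of the E2 effect. The sterol enzyme median in E2 minus E2 plus fulvestrant was 0.14 to 0.18. Of the genes named in the report, members or not, no called treatment difference changed sign in these alternatives. The causes were not tested. The planned count tests and TMM scaling were not run on the reads recovered from the values.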
